A study of Homo sapiens with 3 samples.

Results

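To describe how antisense lncRNAs distributed between a Flag-FAK precipitate and its IgG control, 4 lncRNAs named for a gene on the opposite strand were followed across RIP-seq libraries of MDA-MB-231 cells. The rule that picked them names genes and positions and uses no level, though it was written with earlier results of these data known. They are the lncRNA antisense to BCAR3 (MSTRG.1636.1, MSTRG.1636.2 and MSTRG.1636.3, all listed as NONHSAT004543.2), MMP24-AS1 (MSTRG.20006.2, listed as MMP24-AS1:2, and MSTRG.20006.3, listed as MMP24-AS1:3), ZNF213-AS1 (MSTRG.11389.1, listed as lnc-ZSCAN10-3:13) and KDM4A-AS1 (MSTRG.1095.1, listed as NONHSAT151514.1). These are 7 of the 334 transcripts and 4 of the 293 genes in the deposited tables. The MSTRG names are those of the transcript assembly and carry no database meaning.

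MDA-MB-231, a human cell line of triple negative breast cancer, carries mutant p53. The cells of all 3 libraries were transfected with a plasmid for Flag-tagged FAK (focal adhesion kinase, a tyrosine kinase of the sites where cells attach to the matrix), so the tagged protein was present in the control libraries too and was expressed on top of the FAK that the cells make themselves. Input held 10% of the starting RNA, IgG held RNA retrieved with normal mouse IgG, and Flag-FAK held RNA retrieved with the anti-FLAG antibody. Each condition has 1 library, so no difference between conditions was tested, and each interval given is an exact 95% interval for counting error alone. Molecules read more than once after PCR are not covered by these intervals.

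An antisense lncRNA is transcribed from the strand opposite to another gene, either across that gene or from a start site beside it that points the other way. Some such RNAs act on the neighbouring gene and others work elsewhere in the cell through the proteins they bind, and many have no known role. Of the genes on the opposite strand here, BCAR3 encodes an adaptor of adhesion signalling that binds p130Cas, itself a partner of FAK. MMP24 encodes a membrane-bound matrix metalloproteinase, ZNF213 a zinc finger protein and KDM4A a histone lysine demethylase. The tables list lncRNA transcripts, so the mRNAs of these 4 genes, of FAK and of markers of the cell line were not analysed here.

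The labels antisense and opposite-strand hold to different degrees when the transcripts are set against RefSeq's annotation of GRCh38.p14. The 3 BCAR3 antisense transcripts lie on the plus strand at chr1:93693224-93699727, with MSTRG.1636.3 at the narrower chr1:93694028-93699534, wholly inside BCAR3, which runs on the minus strand. The RefSeq gene on their own strand is LOC102723480, an lncRNA that covers all 3. KDM4A-AS1, on the minus strand at chr1:43703578-43707546, overlaps the last 1941 bases of KDM4A, 48.9% of its span, and 11 bases of ST3GAL3, a sialyltransferase gene. MMP24-AS1:2 on the minus strand at chr20:35277267-35278111 does not overlap MMP24 and stops 268 bases before reaching it, and MMP24-AS1:3 at chr20:35277368-35278099 stops 369 bases before it. Both lie inside MMP24OS, the RefSeq gene with the synonym MMP24-AS1, which RefSeq classes as protein coding. MMP24OS as annotated, at chr20:35276352-35278122, does overlap the end of MMP24, which lies at position 35276998. They also lie inside the span of MMP24-AS1-EDEM2, another protein-coding RefSeq gene on the same strand, at chr20:35115364-35278122. ZNF213-AS1, on the minus strand at chr16:3129373-3132091, lies 2937 bases from ZNF213 and inside the RefSeq gene ZNF213-AS1. Exons were not analysed here, and spans therefore include introns.

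The windows around the RefSeq start sites are shown because the assembled transcripts begin at different distances from them. Each runs from 250 bases before to 50 bases after the start that RefSeq gives in GRCh38.p14, 5′ to 3′ on the strand of the lncRNA, and capitals mark the bases that lie inside the longest assembled transcript. The window of LOC102723480 is chr1:93692901-93693200 on the plus strand, that of MMP24OS is chr20:35278073-35278372 on the minus strand and that of KDM4A-AS1 is chr1:43707292-43707591 on the minus strand.
LOC102723480: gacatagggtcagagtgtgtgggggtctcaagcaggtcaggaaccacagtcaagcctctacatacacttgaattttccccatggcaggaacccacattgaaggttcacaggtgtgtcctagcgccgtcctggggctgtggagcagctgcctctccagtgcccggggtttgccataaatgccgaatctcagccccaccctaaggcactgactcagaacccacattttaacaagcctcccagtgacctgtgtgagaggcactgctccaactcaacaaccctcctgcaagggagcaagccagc
MMP24OS: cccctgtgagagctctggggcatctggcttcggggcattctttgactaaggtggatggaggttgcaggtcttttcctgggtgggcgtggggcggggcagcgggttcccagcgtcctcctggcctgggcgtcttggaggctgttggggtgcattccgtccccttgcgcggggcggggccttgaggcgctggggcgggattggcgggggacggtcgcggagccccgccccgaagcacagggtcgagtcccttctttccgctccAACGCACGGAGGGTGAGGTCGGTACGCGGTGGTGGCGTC
KDM4A-AS1: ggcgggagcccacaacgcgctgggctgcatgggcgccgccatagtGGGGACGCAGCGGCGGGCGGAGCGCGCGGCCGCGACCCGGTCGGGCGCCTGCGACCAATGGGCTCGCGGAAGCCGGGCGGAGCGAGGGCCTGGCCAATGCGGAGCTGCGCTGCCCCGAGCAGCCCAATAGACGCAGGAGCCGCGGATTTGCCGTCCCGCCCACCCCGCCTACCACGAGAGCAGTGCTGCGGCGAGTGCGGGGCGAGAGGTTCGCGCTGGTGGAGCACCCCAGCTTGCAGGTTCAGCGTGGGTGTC

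MSTRG.1636.1 starts 73 bases downstream of the RefSeq start, so none of its window is in capitals. MMP24-AS1:2 starts 11 bases and MMP24-AS1:3 starts 23 bases downstream, which puts 39 and 27 bases of the window inside them. MSTRG.1095.1 starts 205 bases upstream of the RefSeq start of KDM4A-AS1, and 255 bases of that window are inside it. The same stretch faces ST3GAL3, whose own window shares 294 of the 300 bases (98%). The MMP24OS and KDM4A-AS1 windows are rich in CpG, with 26 and 40 CpG dinucleotides and a GC content of 69.0% and 74.3%, against a median of 14 and 58.7% over 35116 RefSeq promoter windows of the same length. The window of LOC102723480 has 4 CpG and a GC content of 56.0%. Among motifs searched on both strands, GGGCGG, the core of a GC box, occurs 4 times in the MMP24OS window and 3 times in that of KDM4A-AS1, and 45.0% of all windows hold it. CCAAT occurs 1 time and 3 times in these windows (34.6% of all windows hold it), TATAAA in neither (11.5%), and none of the 3 motifs is in the window of LOC102723480. No matches overlap.

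For MMP24-AS1:3 the study also designed RT-qPCR primers, shown here because this transcript carries most of the Flag-FAK reads of the 4 lncRNAs. The study followed its sequencing with RIP and RT-qPCR of its top lncRNAs, and its primer list includes this transcript. Its text states no result for MMP24-AS1:3 by name. Both are 20 bases with a GC content of 60%, in the 5′ to 3′ direction, and neither lies in the promoter window above.
sense primer: ggacttctttccagtccccg
antisense primer: gtccctgcgtctcttacacc

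The depth behind these lncRNAs is low. The reads counted over all 334 transcripts came to 2056854 (Input), 109658 (IgG) and 48763 (Flag-FAK), of which 13782, 3669 and 1351 lay outside the ribosomal DNA of chromosome 21 and the 7SK transcript. The total behind the deposited FPKM (a read count divided by transcript length and library size) is not given in the sources used here. A read was worth about the same FPKM in each library, with a median factor of 0.974 for Flag-FAK to IgG, 1.03 for Flag-FAK to Input and 1.07 for IgG to Input, so the ratio of FPKM of a single transcript lies close to its ratio of reads. A sum over transcripts need not, and for BCAR3 antisense the FPKM ratio was 0.468 times the read ratio for Flag-FAK to IgG and 1.77 times for IgG to Input, since its transcripts differed in FPKM per read (0.151 for MSTRG.1636.3 in IgG and 0.0666 for MSTRG.1636.1 in Flag-FAK). A second scale, called rescaled level below, sets the transcripts outside ribosomal DNA and 7SK to a total of 1000000 in each library, and multiplies the ratios by 2.71, 9.14 and 3.37 respectively. Where the direction of a difference depends on this choice, both are given. Where no read was counted, up to 3 reads were taken as possible. A fold given as at least some size sets 3 reads against the reads of the other library as counted, and the interval beside it, which adds the counting error of those reads, ends nearer to 1.

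Input held reads for 6 of the 7 transcripts, IgG for 4 and Flag-FAK for 3. Over all 334 transcripts the shares with reads were 87.1%, 44.9% and 20.1%. In such bulk libraries fewer cells with an RNA and less of it per cell cannot be told apart. All 4 genes had reads in Input, with BCAR3 antisense highest at 8.29 FPKM, followed by MMP24-AS1 at 7.42, ZNF213-AS1 at 3.38 and KDM4A-AS1 at 2.12 FPKM. ZNF213-AS1 had no reads in Flag-FAK and KDM4A-AS1 none in either precipitate. MMP24-AS1 and BCAR3 antisense were therefore the pair read in both precipitates, and MMP24-AS1 had the higher level of them in each, in contrast to Input.

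**Figure D1:**
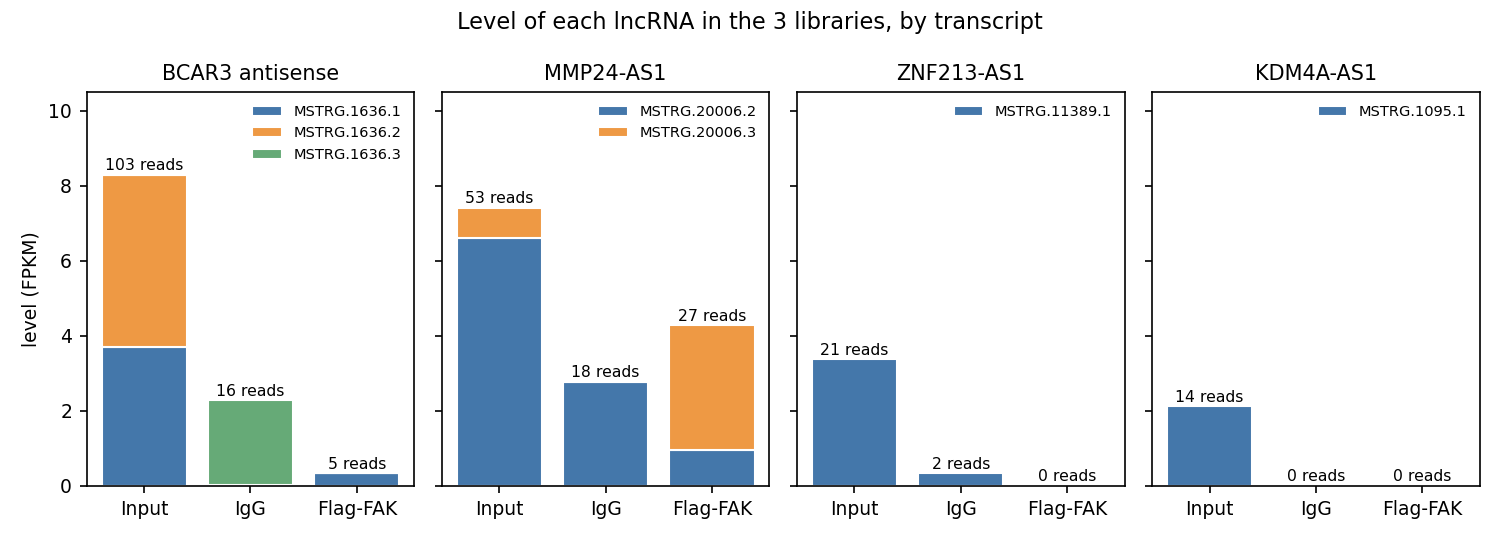
Level of each lncRNA in FPKM (y axis) in Input, IgG and Flag-FAK (x axis), with bars stacked by transcript and the summed reads above each bar. The MMP24-AS1 bar is higher in Flag-FAK (4.28 FPKM) than in IgG (2.77 FPKM), while BCAR3 antisense falls from 8.29 in Input to 2.28 in IgG and 0.333 FPKM in Flag-FAK.

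MMP24-AS1 was the lncRNA with the most Flag-FAK reads of the 4. Summed over its transcripts it had 53 reads (7.42 FPKM) in Input, 18 reads (2.77 FPKM) in IgG and 27 reads (4.28 FPKM) in Flag-FAK. In FPKM it was thus highest in Input and higher in Flag-FAK than in IgG. The Flag-FAK to IgG ratio was 1.55 with an interval from 0.821 to 2.98, which includes 1. On the rescaled level the ratio was 4.19 (2.23 to 8.09). Against Input the direction depended on the scale, with a Flag-FAK to Input ratio of 0.576 (0.349 to 0.933) in FPKM and 5.27 (3.18 to 8.52) on the rescaled level. The IgG to Input ratio was 0.373 (0.206 to 0.647) in FPKM and 1.26 (0.692 to 2.18) on the rescaled level.

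The rescaled comparison can be put in reads. Flag-FAK held 9.80% as many reads outside ribosomal DNA and 7SK as Input, so at its Input share MMP24-AS1 would have had 5.20 reads in Flag-FAK, where 27 (Poisson interval 17.8 to 39.3) were counted. In IgG, with 26.6% as many reads as Input, 14.1 would have been read at the Input share and 18 (10.7 to 28.4) were counted. These intervals leave out the counting error of the Input reads. With it, the share of the library's reads outside ribosomal DNA and 7SK was 5.20 times that in Input (3.14 to 8.41) for Flag-FAK and 1.28 times (0.703 to 2.21) for IgG. Outside ribosomal DNA and 7SK, 39 other loci had a like Input level, between 27 and 106 reads. Of these, 26 (66.7%) had no reads in Flag-FAK, their median was 0 reads, and 1 had at least as many Flag-FAK reads as MMP24-AS1, with 64.

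The transcripts of MMP24-AS1 differed in where their reads lay. MMP24-AS1:2 had 47 reads (6.61 FPKM) in Input, 18 reads (2.77 FPKM) in IgG and 7 reads (0.953 FPKM) in Flag-FAK. MMP24-AS1:3 had 6 reads (0.812 FPKM) in Input, 0 in IgG and 20 reads (3.32 FPKM) in Flag-FAK. In FPKM the first was thus lowest in Flag-FAK and the second highest there. On the rescaled level MMP24-AS1:2 was lowest in Input (1673, against 2358 in IgG and 2203 in Flag-FAK), and MMP24-AS1:3 was again highest in Flag-FAK. MMP24-AS1:2 had a Flag-FAK to IgG ratio of 0.344 (0.122 to 0.864) in FPKM and of 0.934 (0.330 to 2.34) on the rescaled level. MMP24-AS1:3 was at least 6.49-fold higher in Flag-FAK than in IgG in FPKM (interval from 4.81) and at least 17.6-fold on the rescaled level (interval from 13.0). Its Flag-FAK to Input ratio was 4.09 (1.59 to 12.5) in FPKM and 37.4 (14.5 to 114) on the rescaled level. For MMP24-AS1:2 that ratio was 0.144 (0.0550 to 0.321) in FPKM and 1.32 (0.502 to 2.93) on the rescaled level.

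As a share of the gene's reads, MMP24-AS1:3 took 11.3% in Input (exact binomial interval 4.27% to 23.0%), 0% in IgG (up to 18.5%) and 74.1% in Flag-FAK (53.7% to 88.9%). The interval in Flag-FAK lies above those of both other libraries. As a share of FPKM the values were 10.9%, 0% and 77.7%. A scale factor common to a library cancels in these shares. MMP24-AS1:3 spans 732 bases against 845 for MMP24-AS1:2 and lies wholly inside it, 12 bases in from its start and 101 bases in from its end. Reads in the common stretch were divided between both by the authors' tools, and the error of that division is not in the intervals.

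BCAR3 antisense went the other way and was lowest in Flag-FAK. It had 103 reads (8.29 FPKM) in Input, 16 reads (2.28 FPKM) in IgG and 5 reads (0.333 FPKM) in Flag-FAK. The Flag-FAK to IgG ratio was 0.146 (0.0419 to 0.418) in FPKM and 0.397 (0.114 to 1.13) on the rescaled level, where the interval includes 1. The Flag-FAK to Input ratio was 0.0402 (0.0128 to 0.0969) in FPKM and 0.367 (0.117 to 0.885) on the rescaled level. The IgG to Input ratio was 0.275 (0.151 to 0.468) in FPKM and 0.926 (0.510 to 1.58) on the rescaled level. These sums weight the reads by FPKM. Without that weight the calls against Input changed on the rescaled level, and the call against IgG did not. As a share of the library's reads outside ribosomal DNA and 7SK, BCAR3 antisense in Flag-FAK stood at 0.849 times IgG (0.243 to 2.42) and 0.495 times Input (0.157 to 1.19), both intervals including 1, and in IgG at 0.584 times Input (0.322 to 0.993), an interval just below 1. In plain reads the Flag-FAK to IgG ratio was 0.313 (0.0895 to 0.893). At its Input share it would have had 10.1 reads in Flag-FAK, where 5 were counted, and 27.4 in IgG, where 16 were counted. BCAR3 antisense was thus lower in Flag-FAK than in both other libraries beyond counting error in FPKM and in plain reads. Relative to the rest of each library's reads, the comparison with Input depended on the weighting. There the interval against IgG included 1 under either weighting. Of 25 other loci with 52 to 206 reads in Input, 9 (36%) had no reads in Flag-FAK, the median was 3 reads and 11 had at least 5.

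The transcripts under which the BCAR3 antisense reads were listed differed between the libraries. MSTRG.1636.1 had 49 reads (3.69 FPKM) in Input, 1 read (0.0166 FPKM) in IgG and 5 reads (0.333 FPKM) in Flag-FAK. MSTRG.1636.2, which has the same start and end, had 54 reads (4.60 FPKM) in Input and 0 in both precipitates. MSTRG.1636.3 had 15 reads (2.26 FPKM) in IgG and 0 in Input and Flag-FAK. In Input the gene's reads were thus split between MSTRG.1636.1 (47.6%, 37.6% to 57.6%) and MSTRG.1636.2 (52.4%, 42.4% to 62.4%), with at most 3.52% for MSTRG.1636.3. In IgG, MSTRG.1636.3 took 93.8% (69.8% to 99.8%), and in Flag-FAK MSTRG.1636.1 took 5 of 5 reads, for which the interval begins at 47.8%. MSTRG.1636.3 spans 84.7% of the length of the others and lies inside them. As at MMP24-AS1, the error of dividing reads among overlapping transcripts is not in the intervals.

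These splits set the transcript ratios of BCAR3 antisense. MSTRG.1636.1 alone had a Flag-FAK to IgG ratio of 20.1, opposite in direction to the gene sum, but with 5 reads against 1 its interval ran from 0.545 to 230. The single IgG read was worth 0.249 times the FPKM of a Flag-FAK read of the same transcript, so it may be a rounded fraction of a read. The interval was placed with the median factor of 0.974 instead, and is therefore not centred on the ratio of 20.1. MSTRG.1636.2 was at least 17.5-fold lower in Flag-FAK than in Input in FPKM (ratio up to 0.0728) and at least 1.91-fold on the rescaled level (up to 0.665). In IgG it was at least 16.8-fold lower than in Input (up to 0.0759), or 4.98-fold on the rescaled level (up to 0.256). MSTRG.1636.3 was at least 5.14-fold lower in Flag-FAK than in IgG in FPKM (up to 0.271), or 1.89-fold on the rescaled level (up to 0.736). In IgG it was at least 5.37-fold higher than in Input (from 3.85), or 18.1-fold on the rescaled level (from 13.0). The gene sum was not higher in IgG than in Input (ratio 0.275 in FPKM and 0.926 rescaled). Whether these transcript ratios reflect how reads were divided among the transcripts was not tested.

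ZNF213-AS1 was found in Input with few reads in the precipitates. It had 21 reads (3.38 FPKM) in Input, 2 reads (0.330 FPKM) in IgG and 0 in Flag-FAK, so the precipitates cannot be ordered, and no ratio between them is given. In FPKM it was at least 6.80-fold lower in Flag-FAK than in Input (ratio up to 0.198), and its IgG to Input ratio was 0.0979 (0.0116 to 0.418). On the rescaled level neither difference from Input was detectable at this depth, with an upper end of 1.81 for Flag-FAK to Input and a ratio of 0.330 (0.0391 to 1.41) for IgG to Input. At its Input share 2.06 reads would have been read in Flag-FAK, under the 3 that a count of 0 allows.

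KDM4A-AS1, the lncRNA that overlaps the end of KDM4A, was read in Input alone. It had 14 reads (2.12 FPKM) in Input and 0 in IgG and Flag-FAK. In FPKM it was at least 4.53-fold lower in Flag-FAK (ratio up to 0.310) and at least 4.35-fold lower in IgG (up to 0.324) than in Input. On the rescaled level no difference of either from Input was detectable at this depth, with ratios up to 2.84 for Flag-FAK and up to 1.09 for IgG, where the bound was at least 1.29-fold lower. At its Input share 1.37 reads would have been read in Flag-FAK and 3.73 in IgG. Zero counts were common at these levels. Of 109 other loci with 11 to 42 Input reads, the range around ZNF213-AS1, 94 (86.2%) had none in Flag-FAK and 65 (59.6%) none in IgG. Of 152 other loci with 7 to 28 Input reads, the range around KDM4A-AS1, 137 (90.1%) had none in Flag-FAK, 106 (69.7%) none in IgG and 98 (64.5%) none in both.

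The 7 transcripts were set against the whole table by counting those past 2-fold in each direction. When 0.5 FPKM or more was required in 1 or both libraries of a comparison, 3 of the 7 could be counted for Flag-FAK to IgG, and MMP24-AS1:3 was the 1 above 2-fold, as were 14.1% of the 135 transcripts that passed the minimum. MSTRG.1636.3 and MMP24-AS1:2 were below 0.5-fold, as were 77% of the 135. A transcript without reads in 1 library passes the minimum through the other library alone. With 0.1 FPKM added to both levels its call is then fixed. For Flag-FAK to IgG this holds for MMP24-AS1:3 and MSTRG.1636.3, so these calls add nothing to their read counts. It holds likewise below, and in the background shares, wherever a transcript has no reads in 1 library. For Flag-FAK to Input 6 of the 7 passed the minimum, with MMP24-AS1:3 above 2-fold (background 5.33%) and the other 5 below 0.5-fold (background 92.7%). For IgG to Input all 7 passed, with MSTRG.1636.3 above 2-fold (background 13.4%) and the other 6 below 0.5-fold (background 78.8%). On the rescaled level MMP24-AS1:3 was again above 2-fold over IgG (background 20.7%) and over Input (background 10.3%), while MSTRG.1636.3 was the 1 below 0.5-fold against IgG (background 65.2%). By the same count, which takes a listed 0 plus the pseudocount of 0.1 as the level, 3 transcripts without Flag-FAK reads lay below 0.5-fold of Input (MSTRG.1636.2, ZNF213-AS1 and KDM4A-AS1, background 81%), although for ZNF213-AS1 and KDM4A-AS1 the rescaled interval includes 1. From IgG to Input, MSTRG.1636.3 was above 2-fold (background 19.6%) and 5 transcripts were below 0.5-fold (background 66.7%). For MMP24-AS1:3, ZNF213-AS1 and KDM4A-AS1 among these 5, the rescaled interval includes 1 (up to 3.07, 1.41 and 1.09).

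**Figure D2:**
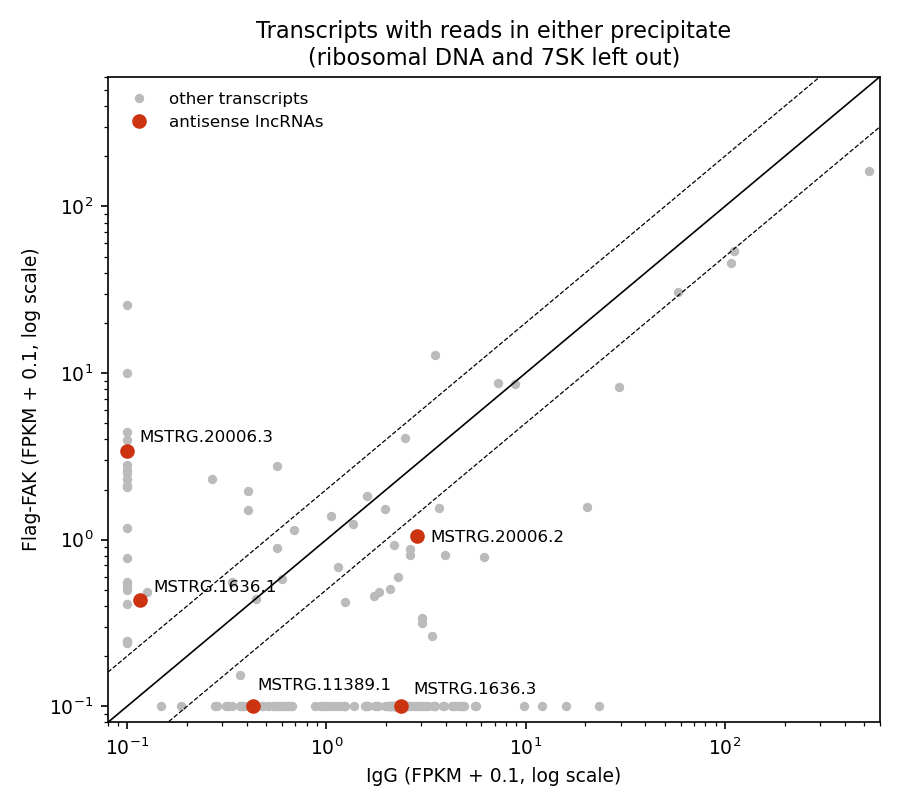
Level in Flag-FAK (y axis) against IgG (x axis), both as FPKM plus 0.1 on log scales, for transcripts with reads in either precipitate outside ribosomal DNA and 7SK. The solid line marks equal levels and the dashed lines a 2-fold difference. MSTRG.20006.3 (0 and 20 reads in IgG and Flag-FAK) and MSTRG.1636.1 (1 and 5 reads) lie above the dashed lines. MSTRG.20006.2, MSTRG.1636.3 and MSTRG.11389.1 (2 and 0 reads) lie below, and MSTRG.1636.2 and MSTRG.1095.1 had no reads in either.

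The reads of a gene were listed under another transcript in each precipitate at both BCAR3 antisense and MMP24-AS1. Of 28 loci with several transcripts, 15 had at least 5 reads in both precipitates, and the transcript with the most reads differed between IgG and Flag-FAK at 5 of them. These were BCAR3 antisense, MMP24-AS1 and 3 of the 13 other loci. The share of reads that would have to move to another transcript to make the precipitates alike was 93.8% at BCAR3 antisense and 74.1% at MMP24-AS1, against a median of 11.4% (0% to 88.6%) at the 13 others. No interval is given for these shares, and that of BCAR3 antisense rests on 5 Flag-FAK reads, the fewest allowed. At so few reads counting error alone can make the share large, so the loci are not ranked by it. These loci were compared after the values of the 4 lncRNAs had been seen.

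Another 35 transcripts of the table are named as antisense RNAs, by database name or by a RefSeq antisense gene at their position. Input held reads for 31 of them, IgG for 20 and Flag-FAK for 6, and 15 had none in either precipitate. Of the 15 that passed the minimum, 1 was above 2-fold in Flag-FAK over IgG and 9 below 0.5-fold. Over all 135 transcripts these shares were 14.1% and 77%. None of the 9 had reads in Flag-FAK, so their ratios set the pseudocount against an IgG level. The median log2 ratio of the 15 was -3.62, the value of a transcript with 7 IgG and 0 Flag-FAK reads. Over all 135 it was -3.63, the value of one with 3 IgG and 0 Flag-FAK reads. Both medians thus depend on the pseudocount and do not measure a fold. The one above 2-fold, TMEM147-AS1:4, had 6, 2 and 7 reads in Input, IgG and Flag-FAK, with a log2 ratio of 2.29. At least 10 reads in a precipitate were found for 4 of the 35. MSTRG.12733.1, a transcript of VPS9D1-AS1, the lncRNA that the study calls FAISL, had 106, 9 and 13 reads in the same order. Over the transcripts of locus MSTRG.12733 the reads were 138, 13 and 20, and MSTRG.12734.1, also at VPS9D1-AS1, had 22, 0 and 0. The transcripts at GRAPL-AS1 had 87, 19 and 19 reads (MSTRG.13247.1) and 199, 56 and 69 reads (MSTRG.13247.2), and the second also covers small nucleolar RNA genes of the SNORD3 family. OTUD6B-AS1:1 had 0, 11 and 0 reads, an IgG-only pattern like that of MSTRG.1636.3.

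Among 59 transcripts outside the 7 with at least 10 reads over both precipitates, those nearest in their pair of log2 ratios, Flag-FAK to IgG and Flag-FAK to Input, were found for both lncRNAs with reads in Flag-FAK. Over these 3 libraries, BCAR3 antisense was nearest to MSTRG.3919.1 at the position of the annexin gene ANXA8, with 112 Input, 50 IgG and 5 Flag-FAK reads, at a distance of 0.71 on the log2 scale. Next came MSTRG.185.2 at VAMP3, a vesicle fusion gene (56, 15 and 4 reads, distance 0.80), and the unnamed MSTRG.13824.2 at chr17:43240798-43251959 (79, 9 and 2 reads, distance 0.83). MMP24-AS1 was nearest to MSTRG.13247.2 at GRAPL-AS1 (distance 0.74), then to MSTRG.12733.2 at VPS9D1-AS1 (32, 4 and 7 reads, distance 1.25) and to MSTRG.27819.2 at HOTAIRM1, an lncRNA of the HOXA cluster (23, 7 and 6 reads, distance 1.29).

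The tables also carry scores that do not depend on the libraries. The coding probability that the authors computed with CPAT, a fraction, was between 0.0271 and 0.124 for 6 of the 7 transcripts and 0.311 for KDM4A-AS1, which ranked 9th of 334 (median 0.0270, highest 0.360). The CPC score, another measure of coding potential that is negative for noncoding sequence, was negative for all 7 transcripts and between -1.14 and -0.914. The authors' predicted target genes were 89 for MMP24-AS1:2 and 92 for MMP24-AS1:3, with 86 in common, 96.6% of the first list and 93.5% of the second. Targets by position were the same 3 for both, MMP24, EIF6, which encodes a factor of ribosome assembly and translation, and FAM83C. Both lists name ZYX, which encodes the focal adhesion protein zyxin, as 1 target in the focal adhesion pathway, a pathway given for 57 of the 3948 listed targets (1.44%). ZNF213-AS1 had 7 predicted targets, of them 6 by position (MMP25, IL32, ZSCAN10, OR1F1, ZNF205 and CASP16). KDM4A-AS1 had 14, none by position, and the BCAR3 antisense transcripts had none, like 22 transcripts of the table in all. These lists are predictions and were not measured in the libraries.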

How the data were processed

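RNA of MDA-MB-231 cells transfected with Flag-tagged FAK was sequenced in 3 libraries, 1 per condition (Flag-FAK, IgG and Input), and samples were grouped by the treatment in their labels. The authors deposited FPKM values and whole-number read counts of 334 lncRNA transcripts, over 7007 lines per table, 1 per transcript and predicted target. They also deposited CPC and CNCI coding scores, the CPAT coding probability as a fraction, and predicted targets, which are the same in each table. The submitters' processing notes name GRCh38 and StringTie. The aligner, the FPKM total and whether counting used the strand are not given in the sources used here. Without strand, reads of an lncRNA and of the gene opposite it (BCAR3, KDM4A, ST3GAL3) cannot be told apart. Whether reads listed under MMP24-AS1 came from mRNAs of MMP24OS or MMP24-AS1-EDEM2, on the same strand, was not tested.

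Ratios are of FPKM as deposited. Counts of transcripts use log2 of (FPKM + 0.1) and require 0.5 FPKM or more in 1 or both libraries compared. For each ratio the reads of both libraries gave a 95% Clopper-Pearson interval, which was put on the FPKM scale with the relative FPKM of 1 read, the item's own where both had at least 5 reads and otherwise the median over transcripts. Bounds take a count of 0 as 3 reads. Sequences and gene positions come from RefSeq (GRCh38.p14) and the study's primer list. Named are the 7 transcripts, antisense transcripts with at least 10 reads in a precipitate, and the 3 nearest patterns. TMEM147-AS1:4 was named after its values were seen. The members and lists were chosen with earlier results of these data known. Alternatives were pseudocounts of 0.01 and 1, TPM over all transcripts or without ribosomal DNA and 7SK, reads plus 1, no minimum or 1 FPKM, and sums per gene. Functions were tested on simulated data. Intervals were computed with scipy 1.17.1, tables with pandas 2.3.3 and numpy 2.4.6 and plots with matplotlib 3.10.9, all in Python 3.11.15.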

Additional observations from a re-analysis of the deposited data

How the results depend on the processing

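No paired analysis was possible because Input, IgG and Flag-FAK are 1 library each, so none could be left out either. The log2 ratios with the 0.1 pseudocount follow. For MMP24-AS1, Flag-FAK to IgG was 0.61, 1.82 with TPM and 2.07 with TPM without ribosomal DNA and 7SK. Its Flag-FAK to Input ratio turned from -0.78 to 3.02 and 2.40 under these settings, and IgG to Input from -1.39 to 1.19 and 0.33. BCAR3 antisense had a Flag-FAK to Input ratio of -4.28, which became -2.80 with a pseudocount of 1 FPKM, -0.82 with TPM and -1.45 with TPM without ribosomal DNA and 7SK. Its IgG to Input ratio of -1.82 turned to 0.75 with TPM and was -0.11 without ribosomal DNA and 7SK. For ZNF213-AS1, Flag-FAK to Input went from -5.12 to -2.13 with a pseudocount of 1 FPKM and IgG to Input from -3.01 to -0.73 with TPM. KDM4A-AS1 went from -4.47 to -1.64 in Flag-FAK to Input with a pseudocount of 1 FPKM. Among single transcripts, MSTRG.1636.1 turned to 0.34 in Flag-FAK to Input with TPM. MSTRG.20006.2 turned to 1.02 with TPM and 0.40 without ribosomal DNA and 7SK in Flag-FAK to Input, and to 1.36 and 0.50 in IgG to Input. TPM multiplied the ratios to Input by 14.1 for Flag-FAK and 6.14 for IgG before the pseudocount, since the FPKM totals of the tables differed that much. Which scale matches the amounts of RNA was not tested. With no minimum, which counts more transcripts, those above 2-fold over IgG rose from 19 to 29. This count stayed within 1.5 times with TPM, a minimum of 1 FPKM and sums per gene. With reads plus 1, BCAR3 antisense moved from -2.46 to -1.50 for Flag-FAK to IgG and from -1.82 to -2.61 for IgG to Input. All 24 ratios kept their direction with pseudocounts of 0.01 and 1 and with reads plus 1, and the FPKM shares of the 15 transcript and library pairs lay inside the intervals of the read shares. The comparisons with loci of a like Input level, with reads at the Input share, with shares of reads and over loci with several transcripts were chosen after seeing the data.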
